A study of Mus musculus with 27 samples.

Results

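The promoters of 6 mesenchymal genes, Col1a1, Postn, Thy1, Snai2, Twist1 and Zeb1, were followed through peak lists of mouse fibroblasts, fibroblasts with induced reprogramming factors, ES cells and aberrant iPS clones. Members were every peak that met 1 of 6 fixed windows of the mouse build mm9: Col1a1 at chr11:94792000-94815000, Postn at chr3:54160000-54171000, Thy1 at chr9:43846000-43857000, Snai2 at chr16:14700000-14715000, Twist1 at chr12:34637000-34650000 and Zeb1 at chr18:5586000-5602000. These windows held 72 of the 234651 peaks in 19 lists, of which 61 were H3K4me3 peaks, 11 were H3K27me3 peaks and none was a UTX peak. No gene annotation of mm9 was used here, so peaks are placed by their coordinates and not by exon, intron or start site.

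The assay was chromatin immunoprecipitation followed by sequencing (ChIP-seq), with 8 lists for H3K4me3, 8 for H3K27me3 and 3 for the H3K27 demethylase UTX. The fibroblasts (MEF) were of the strain V19-OSKM, either Utx-/Y (KO) or Utx+/Y (WT), and each genotype was profiled with doxycycline (dox), which starts reprogramming by the OSKM factors, and without it. KO iPS clones 1 and 2 came from Utx-/Y V19-OSKM cells and are labelled as improperly reprogrammed, and KO ES cells (ESC, Utx-/Y) and WT ESC (Utx+/Y) were of the strain V6.5. Per the labels' growth protocol the fibroblasts were kept in 2i/LIF medium with or without dox, and how long dox was given is not stated in the sources used here. The iPS state had 2 clones and every other state 1 library per mark, so no difference between states could be tested. The comparisons below ask whether these promoters lose H3K4me3 or gain H3K27me3 once dox is given, and whether that differs without Utx. UTX was mapped in WT MEF, WT MEF with dox and WT ESC. The lists used here cannot check the loss of Utx itself, and the KO labels were taken as given.

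H3K4me3 is deposited at the promoters of active and poised genes and tends to spread widely over the start of genes that define a cell type. H3K27me3 is laid down by Polycomb at repressed developmental genes, and UTX (Kdm6a) removes it. In reprogramming, fibroblasts must switch off the mesenchymal programme and pass through a mesenchymal to epithelial transition, the reverse of the epithelial to mesenchymal transition (EMT) that Snai2, Twist1 and Zeb1 drive.

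The promoter sequences of Twist1 and Postn are shown to compare their CpG content. Twist1, like Col1a1, Thy1, Snai2 and Zeb1, had an H3K4me3 peak in every pluripotent list, and Postn had none. H3K4me3 peaks still covered less of the Twist1 window in WT ESC (2229 bp) than in WT MEF (5331 bp). A link between CpG content and H3K4me3 was not tested. They are RefSeq sequences of build GRCm38.p6, another build than that of the peaks, each with 250 bases before and 50 after an annotated start, on the plus strand, with CpG dinucleotides in capitals. RefSeq lists 2 starts for Postn, and Twist1 and Postn were the 2 members found in the table.
Twist1, chr12:33957421-33957720: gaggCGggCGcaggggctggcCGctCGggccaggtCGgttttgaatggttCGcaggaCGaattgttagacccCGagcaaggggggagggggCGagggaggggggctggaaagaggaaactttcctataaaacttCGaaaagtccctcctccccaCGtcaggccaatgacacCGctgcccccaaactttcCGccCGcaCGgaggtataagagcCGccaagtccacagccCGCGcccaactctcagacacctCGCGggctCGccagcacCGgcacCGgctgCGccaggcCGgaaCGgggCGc
Postn, first start, chr3:54359017-54359316: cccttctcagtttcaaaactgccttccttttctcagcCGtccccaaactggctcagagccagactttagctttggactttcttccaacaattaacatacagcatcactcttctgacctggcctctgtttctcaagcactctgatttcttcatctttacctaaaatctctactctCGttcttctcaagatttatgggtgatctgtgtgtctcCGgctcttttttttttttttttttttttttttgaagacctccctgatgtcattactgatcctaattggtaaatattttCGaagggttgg
Postn, second start, chr3:54360857-54361156: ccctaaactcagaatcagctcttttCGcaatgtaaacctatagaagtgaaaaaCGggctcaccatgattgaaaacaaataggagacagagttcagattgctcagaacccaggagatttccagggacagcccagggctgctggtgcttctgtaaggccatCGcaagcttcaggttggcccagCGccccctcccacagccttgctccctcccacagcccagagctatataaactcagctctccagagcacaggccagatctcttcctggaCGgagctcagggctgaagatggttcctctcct
The Twist1 promoter holds 27 CpG, as many as or more than 85.8% of 32851 promoters in the table, and the Postn promoters hold 4 and 5, where the median of all promoters is 7. The E-box letters CACCTG or CAGGTG, searched because ZEB1 and SNAI2 proteins are known to bind them, are in neither gene's promoters on either strand and in 20.2% of all promoters.

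Untreated fibroblasts carried H3K4me3 in all 6 windows and H3K27me3 in none. The windows of KO MEF with dox were also all marked by H3K4me3, while WT MEF with dox, both iPS clones, KO ESC and WT ESC had 5 of 6, each without Postn. Of 14 kb windows centred on the 18017 H3K4me3 peaks of WT MEF, 93.4% and 95.8% held a peak in iPS clones 1 and 2, 91.6% in KO ESC, 91.3% in WT ESC, 97.3% in KO MEF with dox, 97.3% in WT MEF with dox and 94% in KO MEF. The covered length, the number of bases of a window under peaks, came to 26.8 kb over the 6 windows in KO MEF and 24.0 kb in WT MEF. For each gene the strongest peak of its main H3K4me3 region was ranked within its own list by the deposited score, which reflects read depth as well as enrichment. Col1a1 ranked highest in WT MEF: its peak at chr11:94796705-94802090 had a score of 2525, reached by 0.183% of the 18017 peaks of that list. In KO MEF the peak at chr11:94797579-94801706 scored 3100, a value shared or exceeded by 60 of 22056 peaks. Col1a1 encodes a chain of type I collagen, the main fibrous collagen that fibroblasts secrete.

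The other 2 surface or matrix genes also had high scores. Postn encodes periostin, a secreted matrix protein of connective tissue. Its strongest peak scored 1489 in KO MEF, reached by 4.41% of that list, and 923 in WT MEF, reached by 8.15%. Thy1, which encodes a cell surface glycoprotein used as a fibroblast marker, scored 974.5 in KO MEF (13.4% of the list) and 667 in WT MEF (17.8%).

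Among the transcription factors, Twist1 and Snai2 stood above Zeb1. Twist1, a basic helix-loop-helix factor, scored 3100 in KO MEF and 1389 in WT MEF, where 2.08% of peaks reached that score. Snai2 (Slug), a zinc finger repressor, scored 2859 in KO MEF and 1138 in WT MEF, reached by 0.385% and 4.28% of their lists. Zeb1, a zinc finger and homeodomain repressor of epithelial genes, scored 718 in KO MEF and 637 in WT MEF, reached by 23.1% and 19.6%.

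Without dox, KO and WT fibroblasts differed in none of the 6 windows by the limit used throughout, a covered length at least 2-fold apart or a peak in only 1 of the lists compared. The length was 8103 bp in KO MEF against 7345 bp in WT MEF at Col1a1, 2963 against 2532 bp at Postn and 4878 against 4684 bp at Snai2. At Twist1 it was 6467 bp in KO MEF and 5331 bp in WT MEF, and at Zeb1 2748 and 1807 bp. Thy1 alone was shorter in KO MEF, at 1597 bp against 2287 bp in WT MEF. Over the genome, 13.5% of merged H3K4me3 regions were at least 2-fold shorter and 19.7% at least 2-fold longer in KO MEF. No window had H3K27me3 in either list, where 46.6% of merged H3K27me3 regions were at least 2-fold higher in KO MEF.

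**Figure D1:**
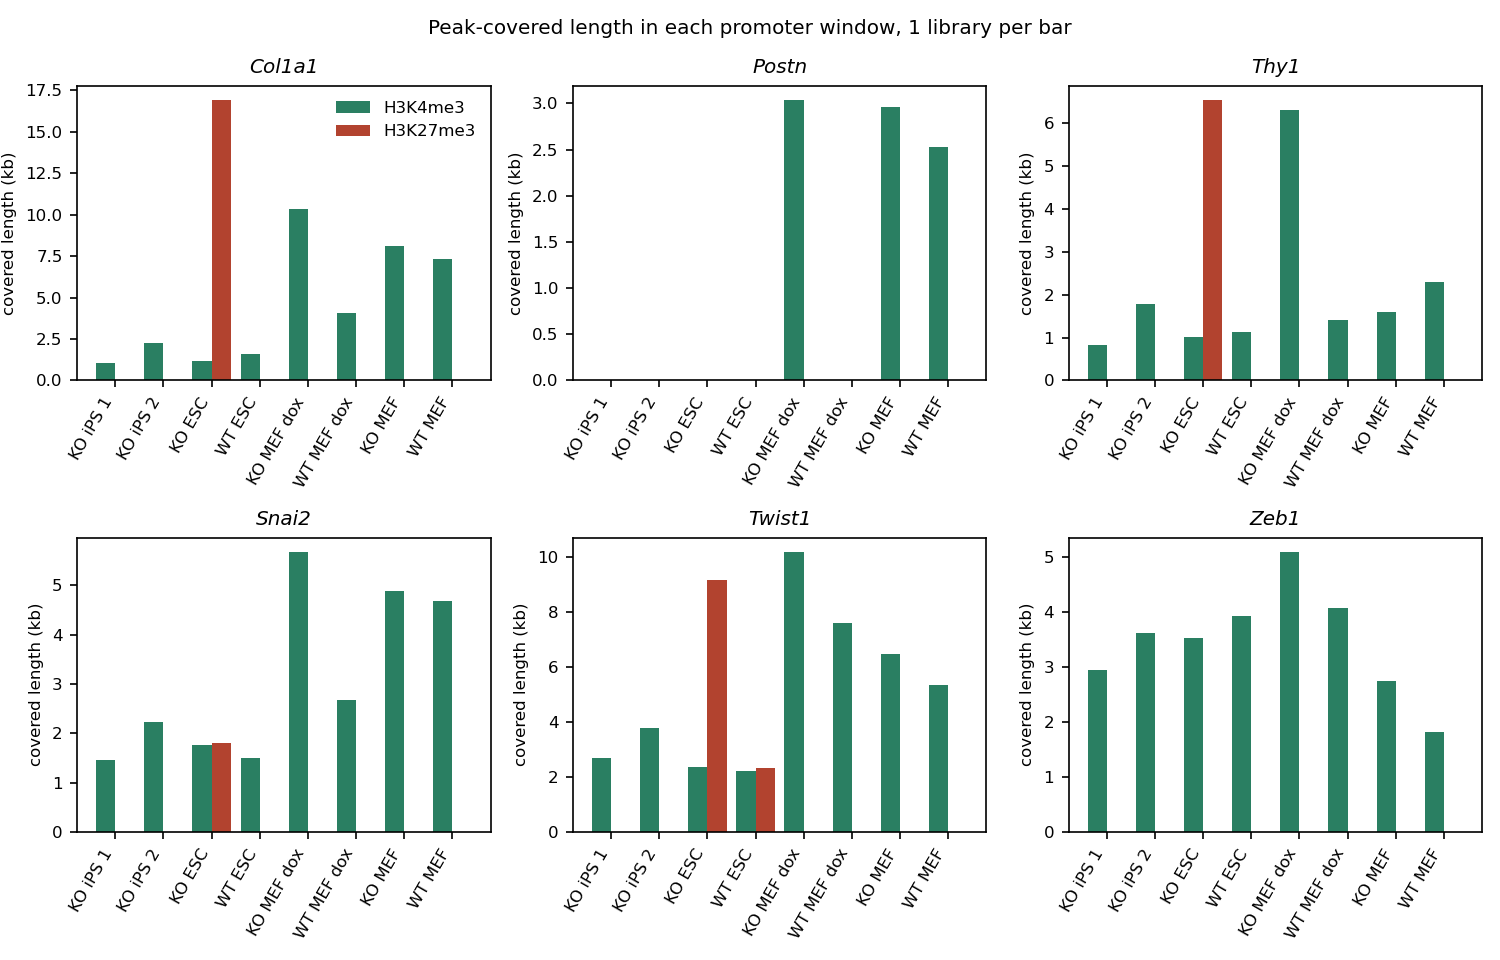
Covered length in kb (vertical axis, starting at 0) of H3K4me3 (green) and H3K27me3 (red) peaks in the window of each gene, with 1 bar per library. H3K4me3 at Col1a1, Postn, Thy1 and Snai2 is short or missing in WT MEF with dox and long in KO MEF with dox, and H3K27me3 appears only in KO ESC and, at Twist1, in WT ESC.

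In WT fibroblasts, dox came with shorter H3K4me3 at 4 of the 6 genes. Postn had no peak with dox against 2532 bp without, and with dox the nearest H3K4me3 peak was 198 kb from the window. Col1a1 had 4096 bp with dox against 7345 bp without, of which 1 peak of 2530 bp at chr11:94797442-94799971 lay inside the broad peak of untreated WT MEF. The rest came from a peak at chr11:94813435-94815514 on the far edge of the window, where untreated WT MEF had none.

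Thy1 had 1406 bp with dox against 2287 bp without, and Snai2 had 2671 bp against 4684 bp. The Snai2 peak with dox, chr16:14704696-14707366, began close to where the untreated peaks began, and the stretch up to 14709551 that untreated WT MEF carried was no longer marked. Zeb1 and Twist1 went the other way. Zeb1 had 4069 bp with dox against 1807 bp without, and Twist1 had 7578 bp against 5331 bp.

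Postn was the only window past the 2-fold limit on the short side, where 4.09% of 20503 merged regions fell, and Zeb1 the only one on the long side, where 54.7% fell. Col1a1 stayed within the limit only through the peak on the far edge of its window. Its main peak alone covered 2530 bp with dox against 5386 bp without, which is past the limit. Shortening by any amount was seen in 4 of 6 windows, in 5.33% of merged regions and in 4.92% of 14 kb windows centred on them. Most of the genome was wider with dox, with a median peak width of 2379 bp in WT MEF with dox against 1118 bp in WT MEF. Divided by the median width of their own lists, Col1a1 with dox had 0.262 of its untreated length, Snai2 0.268, Thy1 0.289, Twist1 0.668 and Zeb1 1.06. That put 4 windows including Postn past the limit, and the share of all regions past it on this scale was not computed. Among regions marked in both untreated genotypes, the 10% with most H3K4me3 in WT MEF covered 3119 bp or more. Of these wide regions, 12.2% were shorter with dox in WT cells. The 5.33% above has another base, since it also counts regions marked only with dox, which cannot be shorter. Col1a1, Twist1 and Snai2 lie among these wide regions, and Col1a1 and Snai2 were shorter.

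With dox, all 5 genes that still had a peak in WT cells ranked lower in their list than without. These include Twist1 and Zeb1, whose covered length was greater. High scores were far more common in the WT list with dox, and the share of all regions that ranked lower was not computed. The lower ranks can therefore not be read as particular to these genes. The main Col1a1 peak scored 488 in WT MEF with dox, reached by 60.8% of its list, against 0.183% in WT MEF. Snai2 scored 860 with dox, reached by 50.9%, against 4.28% without. Thy1 scored 134 with dox, reached by 80.7%, against 17.8% without. Twist1 scored 2964 with dox (12.4% of the list) against 1389 without (2.08%), and Zeb1 scored 2226 (22.1%) against 637 (19.6%). The scores of Twist1 and Zeb1 were thus higher with dox, and those of Col1a1, Snai2 and Thy1 lower.

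**Figure D2:**
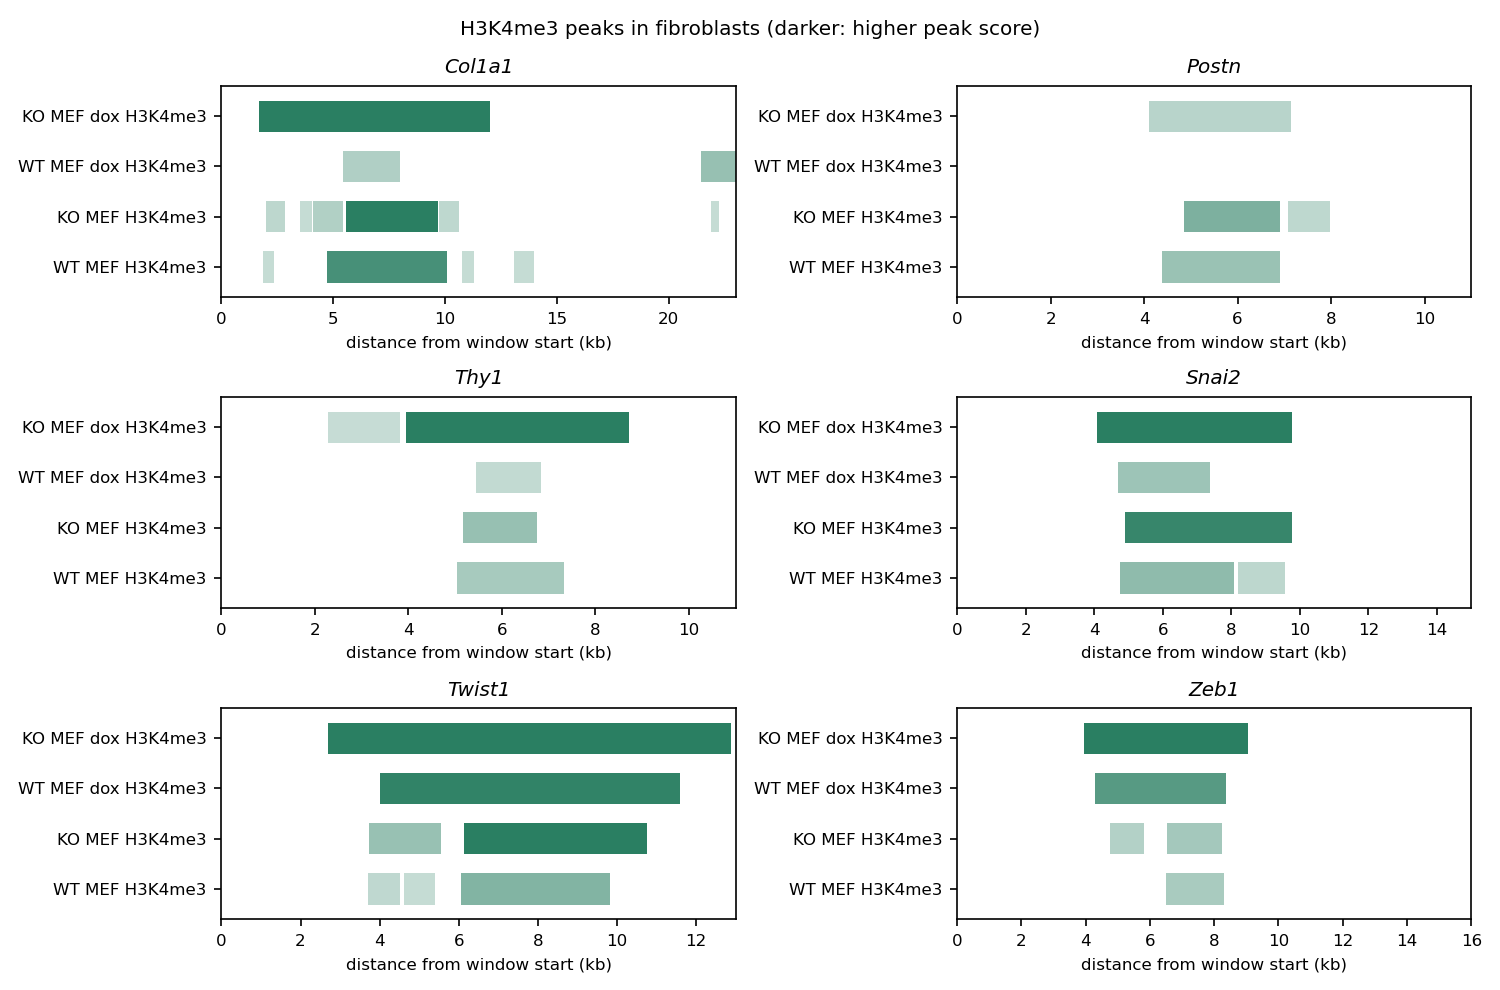
H3K4me3 peaks of the 4 fibroblast lists drawn to scale in the 6 windows, with the distance from the window start in kb on the horizontal axis and darker bars for higher scores. In WT MEF with dox the peaks of Col1a1, Thy1 and Snai2 are narrow and pale and Postn has none, while KO MEF with dox has a peak in every window.

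In KO fibroblasts, dox came with longer H3K4me3 in every window. Thy1 had 6299 bp with dox against 1597 bp without, the only 1 of the 6 past the 2-fold limit, and 62.1% of 17117 merged regions were past it. Col1a1 had 10321 bp with dox, in 1 peak at chr11:94793686-94804006, against 8103 bp in 6 peaks without. Twist1 had 10182 bp with dox against 6467 bp without, Zeb1 5095 bp against 2748 bp, and Snai2 5686 bp against 4878 bp. Postn was nearly level, at 3037 bp with dox and 2963 bp without. No window was shorter with dox by any amount, against 5.63% of merged regions and 4.63% of 14 kb windows, and 5.62% of merged regions were at least 2-fold shorter.

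The general widening was larger in KO cells, with a median H3K4me3 peak width of 3063 bp in KO MEF with dox against 832 bp in KO MEF. Scaled by these widths, Postn with dox had 0.278 of its untreated length, Snai2 0.317, Col1a1 0.346, Twist1 0.428, Zeb1 0.504 and Thy1 1.07. On that scale 4 of the 6 windows were past the 2-fold limit on the short side, as many as in WT cells. Thy1 was not among them. The share of all merged regions past the limit on that scale was computed in neither genotype. The counts can therefore not be set against the genome.

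The Postn peak was weaker with dox in KO cells too. It scored 335 in KO MEF with dox, reached by 74.9% of the list, against 1489 in KO MEF, reached by 4.41%. The other 5 genes all stood at 3100 in KO MEF with dox, a score at which the lists saturate, and 3156 of its 16157 peaks (19.5%) were at or above it. Ranks among these genes could therefore not be resolved in that list. Still, 1.51% of its peaks scored above 3100. In KO MEF only 0.272% of peaks reached the score of Col1a1 or Twist1, and 0.385% that of Snai2. Col1a1, Twist1 and Snai2 thus ranked lower with dox in KO cells too. The share of all regions that ranked lower was not computed in KO cells either. Zeb1 ranked higher with dox, since 23.1% of KO MEF peaks reached its score there. The direction at Thy1, at 13.4% in KO MEF, was unresolved.

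**Figure D3:**
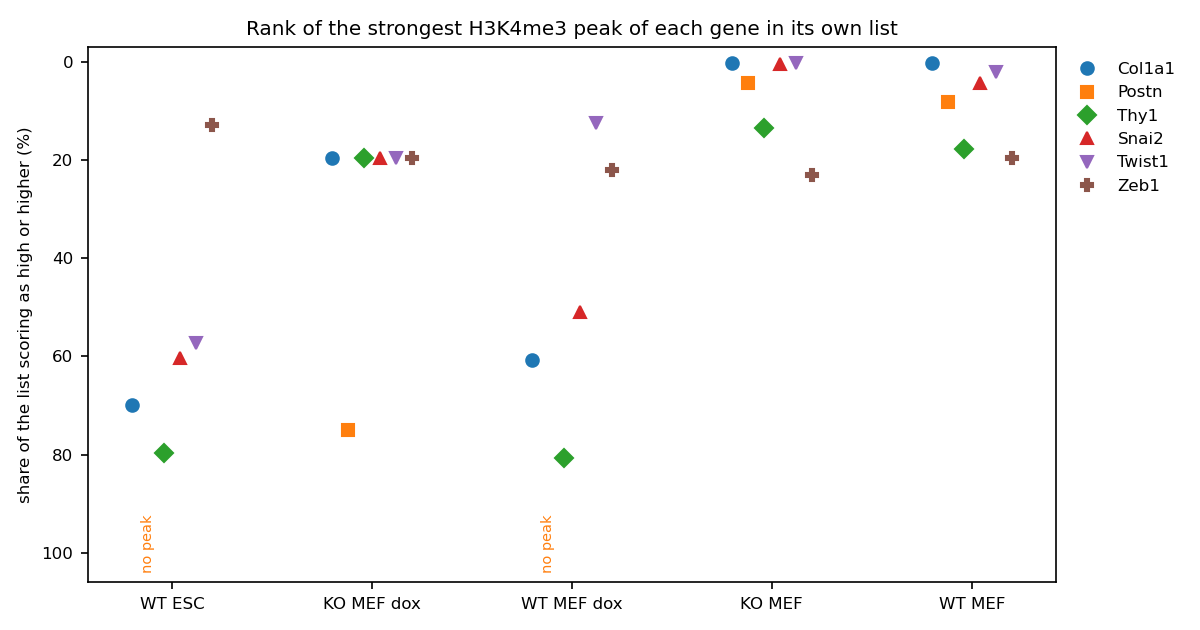
Share of a list's H3K4me3 peaks that score as high as or higher than the strongest peak of each gene's main region (vertical axis, in percent, strongest at the top), for 5 states with 1 library each. Col1a1, Thy1 and Snai2 lie lower in WT MEF with dox than in WT MEF, and Postn lies low in KO MEF with dox and has no peak in WT MEF with dox.

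Set side by side, covered length changed with dox in opposite directions in the 2 genotypes at Col1a1, Postn, Thy1 and Snai2. Col1a1 was 2218 bp longer with dox in KO cells, and its change in WT cells was -3249 bp. Thy1 changed by 4702 bp in KO cells and by -881 bp in WT cells, and Snai2 by 808 bp in KO cells and -2013 bp in WT cells. Postn was 74 bp longer in KO cells, while all of its 2532 bp were missing in WT cells. Its KO peak score fell from 1489 to 335 with dox, so by score Postn did not go opposite ways. Twist1 was 3715 bp longer in KO and 2247 bp longer in WT cells, and Zeb1 2347 and 2262 bp longer.

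Of 11920 merged regions marked in both untreated genotypes, 3.55% were shorter with dox in WT and longer in KO cells. The share was 3.91% of 14 kb windows and 12.1% of the wide regions described above. With 1 library per state this difference was not tested. On the scale of list widths both genotypes had less H3K4me3 with dox at Col1a1, Postn, Snai2 and Twist1, so for Col1a1, Postn and Snai2 the opposite direction holds for length in bases and not for length relative to the list.

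With dox, KO cells had at least 2-fold more H3K4me3 than WT cells at 4 of 6 genes, where 6.26% of 20309 merged regions, 6.01% of 14 kb windows and 4.11% of the wide regions did, and none was at least 2-fold lower, where 21.3% of merged regions were. Col1a1 had 10321 bp in KO MEF with dox and 4096 bp in WT MEF with dox (2.52-fold), Thy1 6299 and 1406 bp (4.48-fold), and Snai2 5686 and 2671 bp (2.13-fold). Postn had 3037 bp in KO MEF with dox and no peak in WT MEF with dox. Twist1 was 1.34-fold and Zeb1 1.25-fold longer in KO cells. Scaled by list widths, Thy1 was 3.48-fold longer in KO cells and Postn marked in KO cells only. Col1a1 came to 1.96-fold and Snai2 to 1.65-fold, so 2 windows remained past the limit. No genome share was computed on that scale.

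**Figure D4:**
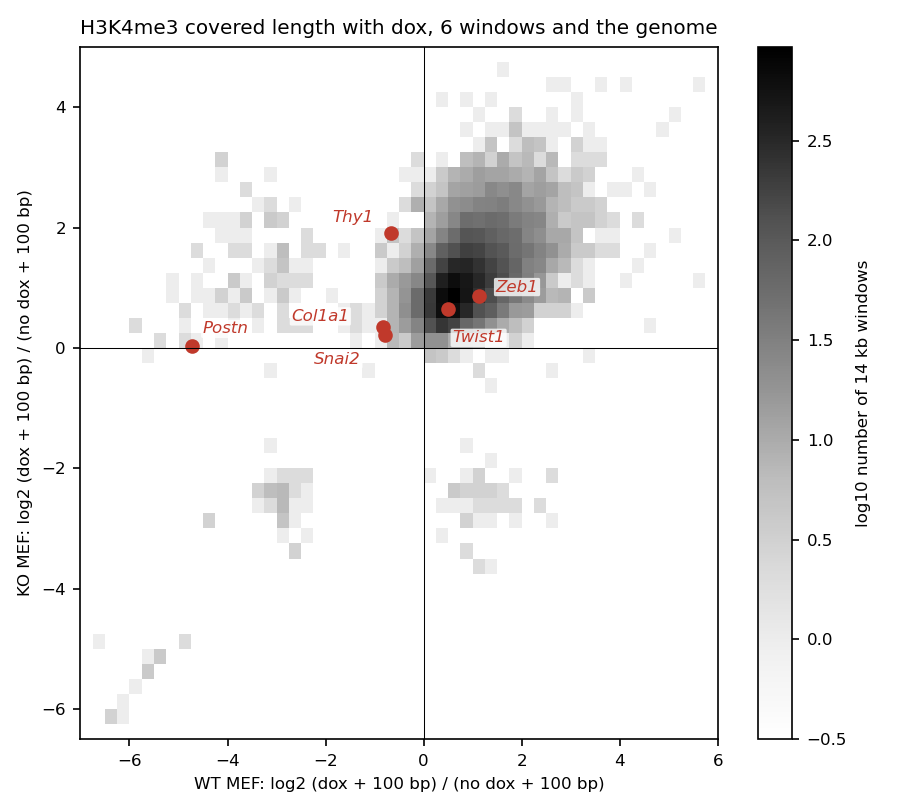
Change of H3K4me3 covered length with dox in WT MEF (horizontal axis) and KO MEF (vertical axis), as log2 of length with over without dox after adding 100 bp to each. Grey shading counts 13152 windows of 14 kb centred on H3K4me3 regions (medians 0.74 in WT and 1.03 in KO cells), and red points are the 6 genes, of which Postn, Col1a1, Snai2 and Thy1 lie left of 0 and above 0.

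H3K27me3 was absent from all 6 windows in all 4 fibroblast lists, with or without dox and Utx. Merged H3K27me3 regions at least 2-fold higher made up 43.1% with dox in KO cells, 13.5% with dox in WT cells and 85.3% in KO MEF with dox over WT MEF with dox. UTX likewise had no peak in any of the 6 windows in the lists of WT MEF with dox and WT MEF. Such absence is common: of 14 kb windows centred on WT MEF H3K4me3 peaks, 5.87% had an H3K27me3 peak in KO MEF with dox, 1.4% in WT MEF with dox, 4.7% in KO MEF and 5.35% in WT MEF. A UTX peak was found in 4.49% of these windows with dox and in 0.649% without. The WT MEF list with dox had 938 H3K27me3 peaks, against 4335 in KO MEF with dox, so weak H3K27me3 there may not have been detectable. In 3 of these lists H3K27me3 lay closest at Twist1, 22.8 kb from the window in KO MEF with dox, 22.3 kb in KO MEF and 22.6 kb in WT MEF. The list of WT MEF with dox differed, with H3K27me3 3066 kb from the Twist1 window and closest at Thy1, 31.8 kb from the window.

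In WT ESC, where the mesenchymal programme is normally off, 5 of the 6 windows had at least 2-fold less H3K4me3 than WT MEF, as did 11.5% of 21841 merged regions. Postn had none in WT ESC. Col1a1 had 1618 bp in WT ESC and 7345 bp in WT MEF, Snai2 1491 and 4684 bp, Twist1 2229 and 5331 bp, and Thy1 1140 and 2287 bp. Thy1 was only just past the limit, at 0.498 of its length in WT MEF. Zeb1 was the exception, with 3915 bp in WT ESC and 1807 bp in WT MEF a 2-fold excess seen in 48.7% of merged regions, and a score of 2076 in WT ESC, reached by 12.9% of that list. The remaining H3K4me3 peaks of Col1a1 and Snai2 in WT ESC, at chr11:94798136-94799753 and chr16:14705139-14706629, lay inside the narrowed peaks of WT MEF with dox. They also lay inside peaks of untreated WT MEF, so this position is not particular to dox. At Thy1 the WT ESC peak, chr9:43851275-43852414, began outside the WT MEF peak with dox, chr9:43851441-43852846.

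H3K4me3 in KO ESC was close in length to that in WT ESC, within the 2-fold limit in every window. The lengths were 1187 bp in KO ESC and 1618 bp in WT ESC at Col1a1, 1004 and 1140 bp at Thy1, 1755 and 1491 bp at Snai2, 2363 and 2229 bp at Twist1, and 3519 and 3915 bp at Zeb1. Postn was unmarked in both. Over the genome 12.2% of merged regions were at least 2-fold shorter and 12.8% at least 2-fold longer in KO ESC.

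H3K27me3 did set the 2 ES cell lists apart at 4 of the 6 genes. It covered 16918 bp of the Col1a1 window in KO ESC, in 4 peaks with a top score of 814, and none of it in WT ESC. Thy1 lay under 1 peak of 6538 bp in KO ESC, chr9:43849258-43855795 with a score of 1010, and had none in WT ESC. Snai2 had 1808 bp in KO ESC at a score of 107 and none in WT ESC. Twist1 had 9164 bp in KO ESC and 2327 bp in WT ESC, the only window with H3K27me3 in WT ESC. Against WT MEF, 52.4% of merged H3K27me3 regions were at least 2-fold higher in WT ESC. Zeb1 and Postn had none in either list.

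The KO ESC list was far longer than the WT ESC list, with 36231 H3K27me3 peaks against 5679, and 94.9% of merged regions were at least 2-fold higher in KO ESC, so the direction alone says nothing particular about these genes. Of 14 kb windows centred on WT ESC H3K4me3 peaks, 33.5% had H3K27me3 in KO ESC and 11.6% in WT ESC, next to 4 and 1 of the 6 windows. Within the KO ESC list, 2.54% of peaks scored higher than the Thy1 peak, 3.85% higher than the strongest Col1a1 peak and 5.00% higher than the strongest Twist1 peak, while 46.9% scored higher than the Snai2 peak. In an equal number of top-scoring peaks from both lists Snai2 dropped out and 3 windows were left.

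Both marks met at Col1a1, Thy1, Snai2 and Twist1 in KO ESC, and not at Zeb1 or Postn. The share of all KO ESC H3K4me3 peaks that meet H3K27me3 is not given here, so this overlap cannot be set against the genome. H3K27me3 overlaid all 1004 bp of H3K4me3 at Thy1, 69.1% of it at Twist1, 65.5% at Col1a1 and 41.2% at Snai2. At Twist1 in WT ESC it overlaid 21.1%. The Twist1 H3K27me3 peaks in KO ESC, chr12:34639355-34642437 and chr12:34643167-34645232, left a gap within the H3K4me3 peak at chr12:34641869-34644231. UTX had no peak in any of the 6 windows in WT ESC. That list held 5076 peaks, and the share of all H3K4me3 regions with one was not computed. The absence can therefore not be read as a trait of these genes.

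**Figure D5:**
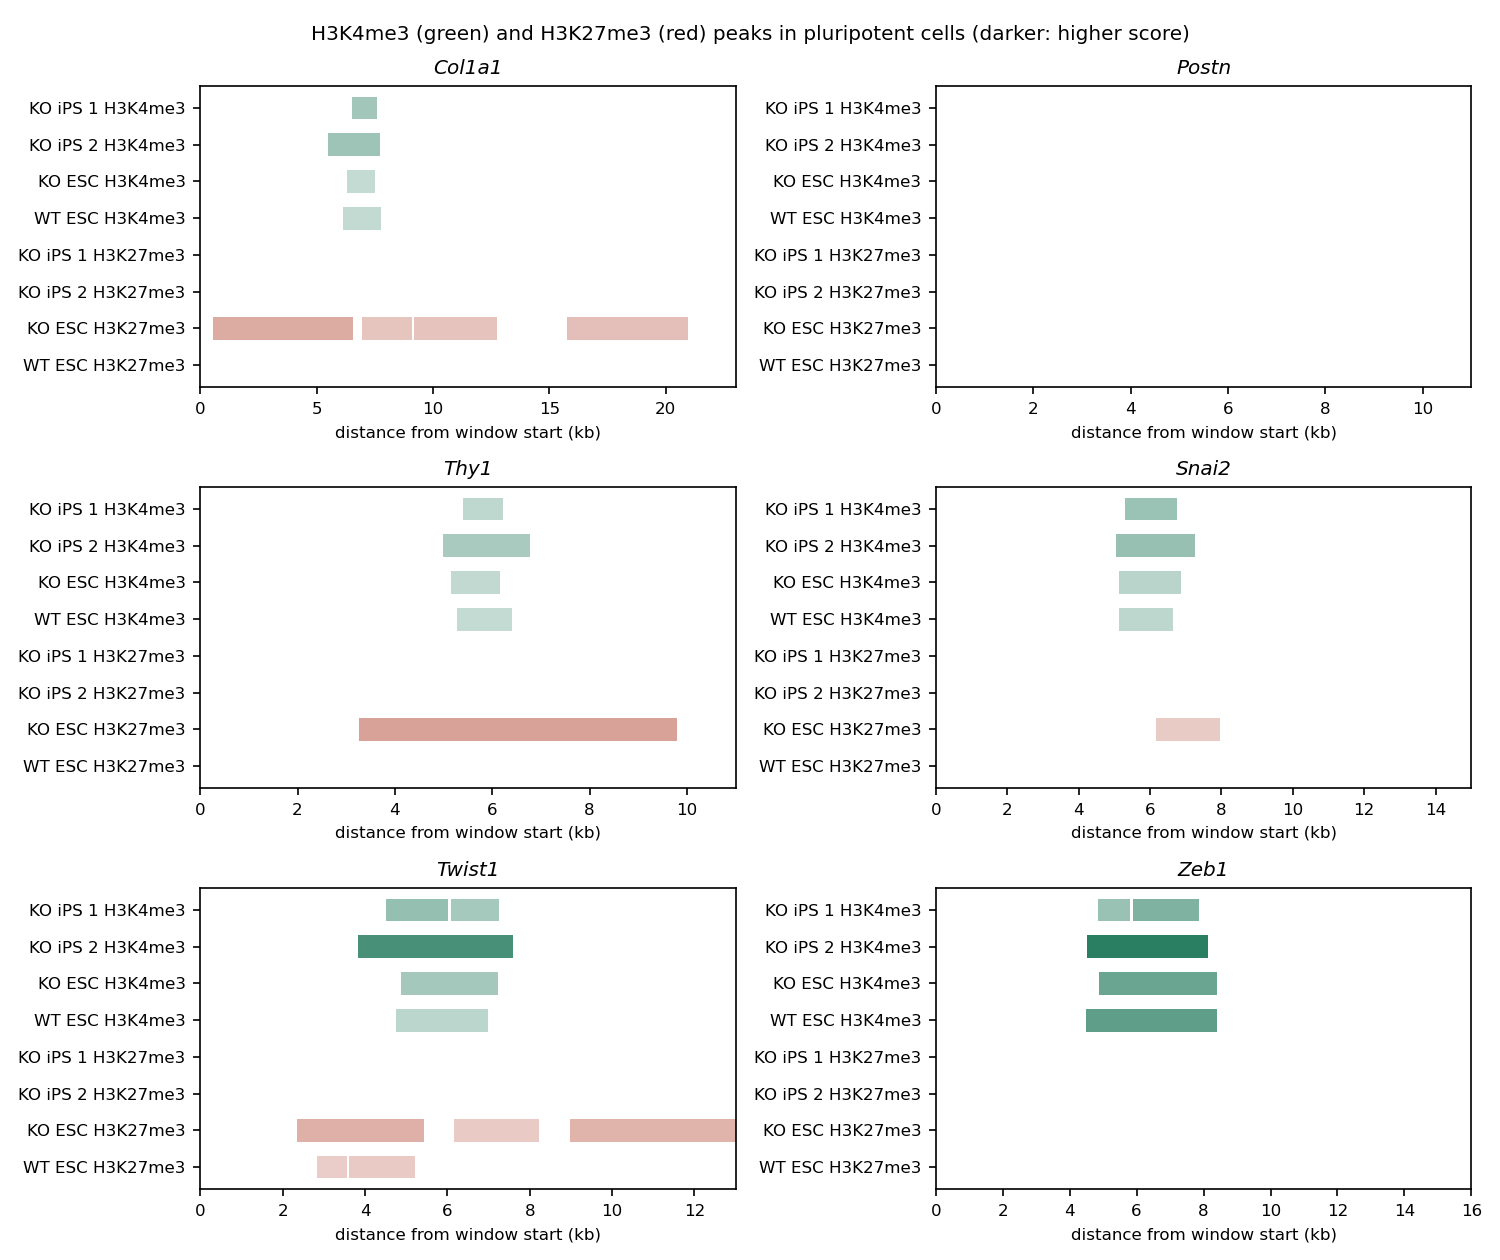
H3K4me3 (green) and H3K27me3 (red) peaks of the iPS and ES cell lists drawn to scale in the 6 windows, with the distance from the window start in kb on the horizontal axis and darker bars for higher scores. H3K27me3 is drawn at Col1a1, Thy1, Snai2 and Twist1 in KO ESC and at Twist1 in WT ESC, and Postn has no peak of either mark.

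The aberrant KO iPS clones had less H3K4me3 than KO MEF at Postn, Col1a1 and Snai2. Postn was unmarked in both clones. Col1a1 had 1072 and 2247 bp in clones 1 and 2 (mean 1659.5 ± 831 bp, SD, n = 2) against 8103 bp in KO MEF, and Snai2 had 1461 and 2228 bp (1844.5 ± 542 bp) against 4878 bp. These 3 genes were at least 2-fold lower than KO MEF in both clones, as were 6.7% of merged regions (13.5% in clone 1 and 7.01% in clone 2 taken singly). Twist1 had 2684 and 3773 bp (3228.5 ± 770.0 bp) against 6467 bp in KO MEF and passed the limit in clone 1 only. Thy1 had 827 and 1780 bp against 1597 bp, and Zeb1 2940 and 3608 bp against 2748 bp. Neither clone had H3K27me3 in any window. Their H3K27me3 lists held 135 and 737 peaks, so an absence of the mark could not be told apart from a weak immunoprecipitation.

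Over the 8 H3K4me3 lists, the order of lengths was the same for Col1a1, Postn and Snai2 among the 4 fibroblast states: KO MEF with dox, KO MEF, WT MEF, then WT MEF with dox. Among the pluripotent lists the KO and WT ESC values of Col1a1 lay between those of the 2 clones, the only replicated state, so their order is within that spread. For Thy1, WT MEF with dox at 1406 bp also fell between the clones. Zeb1 was shortest in WT MEF and longest in KO MEF with dox.

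Regions were compared in length over the 8 lists, among 33646 merged regions of the genome, by Euclidean distance on the scale of log2 (length + 100 bp). Nearest to Col1a1 was the region of Snai2, at a distance of 1.349, almost level with chr3:113731583-113737987 at 1.351. Neither was a close match, as the nearest regions of the other 5 genes lay at distances of 0.30 to 0.74. Postn's main region was marked in KO MEF with dox, KO MEF and WT MEF only, a pattern it shared with 86 others (0.259% of regions, counting Postn). Most alike to Postn were chr3:70608195-70611469, with 2840, 2738 and 3047 bp in those lists, and chr13:49639567-49643133, with 3556, 3241 and 3015 bp. The main regions of the other 5 genes were marked in all 8 lists, as were 31.7% of regions. Most alike to Zeb1 was chr5:66152604-66157618 (distance 0.31), to Thy1 chr6:127836433-127840375 (0.74), to Twist1 chr8:123638194-123646363 (0.57) and to Snai2 chr16:37776287-37781770 (0.62).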

How the data were processed

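Peak lists of 19 of 27 samples were used, and the 8 whole-cell extracts were not analysed here. Each deposited list gives the authors' score per peak, which is 50 or more and larger for stronger peaks. Upstream, the submitters' processing notes list MACS 1.4.1, Bowtie 0.12.5, CASAVA 1.8.2 and the build mm9. Settings and the control behind each list are not given in the sources used here. Lists were called per sample, read depth was unknown, and scores saturated at 3100 (15410 peaks). Score was used to rank peaks within a list.

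Peaks off the numbered chromosomes, X and Y (1 peak) were left out, and coordinates are 1-based. Peaks meeting a window by at least 1 bp were members, and covered length was clipped to the window. Backgrounds are merged peaks of the lists compared, or 14 kb windows centred on them. The members, windows and lists were chosen with earlier results of these data known. All 6 genes are named, and the 2 regions most alike to each gene's main region were looked up, of which the text gives 1 or 2. Further mesenchymal, EMT and epithelial genes were not analysed here, since no mm9 annotation was used. With 1 library per state no test was run, and p-values are absent. Overlap code was checked on 10 of 10 simulated lists against bedtools 2.31.1. Calculations ran in pandas 2.3.3 and numpy 2.4.6 under Python 3.11.15, with plots from matplotlib 3.10.9. Alternatives were a score of at least 100, equal numbers of top-scoring peaks, covered length over the median width of the list, windows widened by 5000 bp, each iPS clone left out, and, chosen after seeing the data, the strongest peak of a window only.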

Additional observations from a re-analysis of the deposited data

Results flagged for a closer look

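Dox went with longer H3K4me3 in KO MEF and shorter H3K4me3 in WT MEF at 4 genes. At Postn the gain in KO MEF was only 74 bp, and its KO peak score fell from 1489 to 335 with dox. The change with dox in KO cells minus that in WT cells came to 5583 bp at Thy1, 5467 bp at Col1a1, 2821 bp at Snai2 and 2606 bp at Postn. The difference was not tested, since each state had 1 library. General peak width moved with dox as well, and scaling by it put both genotypes on the short side at Col1a1, Snai2 and Postn.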

How the results depend on the processing

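Of 148 repeats over both marks, both directions and 7 comparisons, 137 stayed within 1.5 times the count of windows given first. Many of these compared 0 with 0, as for H3K27me3 in fibroblasts, which had no peak in any window. The total of 137 is therefore no measure of stability. The 11 that moved were all counts of H3K4me3, most of them for fibroblasts with against without dox. With covered length over the median width of each list, windows with shorter H3K4me3 with dox numbered 4 in KO and 4 in WT fibroblasts, against 0 and 1, and windows with longer H3K4me3 with dox numbered 0 in each, against 1 and 1. On that scale 2 windows were higher in KO than WT MEF with dox, against 4. It also gave 1 window higher in KO MEF than in WT MEF and 0 in WT ESC than in WT MEF, against 0 and 1. Genome shares on that scale were not computed. The strongest peak alone gave 2 shorter windows with dox in WT cells (Col1a1 and Postn), 2 longer in WT cells and 4 longer in KO cells. Score at least 100 gave 1 window with more H3K4me3 in KO ESC than WT ESC, Thy1, whose WT ESC peak scored 98.7. Leaving out an iPS clone gave 3 to 4 windows with less H3K4me3 than KO MEF. No paired analysis was possible because the only numbered replicates are the 2 iPS clones, and no other group compared has a second library. Unknown depth, 1 library per state and scores that saturate limit every comparison.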

Other observations

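Peaks just outside the windows add the following distances. In WT ESC the UTX peak nearest to the Col1a1 window lay 3.84 kb from it, the closest of any UTX peak to the 6 windows, and the next closest was 40.8 kb from the Twist1 window in WT MEF with dox. H3K27me3 in KO ESC lay 37.5 kb from the Postn window and 386 kb from the Zeb1 window. The H3K27me3 peak at chr12:34645986-34656058 in KO ESC (score 620.1) ran 10073 bp and past the end of the Twist1 window.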
